A study of Mus musculus with 4 samples.

Results

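Prostaglandin synthesis and sensing were followed in islet cells through 5 genes: the cyclooxygenases *Ptgs1* and *Ptgs2*, the prostaglandin E synthase *Ptges*, and the prostaglandin E receptors *Ptger3* and *Ptger4*. They were taken by gene symbol from the 31053 genes of the count tables and measured in 6847 cells of 6 classes, out of 7471 cells that passed the filters and 12571 barcodes in all. The islets came from C57BL/6 mice (C57BL6/J in the study's methods) with no transgene named in the labels, were pooled from several male animals, and were then separated into 4 samples. Each sample gave 1 droplet library (untreated, IL-1β for 6 h, IFN-γ for 6 h, or both cytokines for 6 h, all ex vivo). The IL-1β was the human protein and the IFN-γ the mouse protein. Since each condition had a single library, differences between conditions could not be checked against replicates and were not tested. Levels are counts per 1000000 UMIs (CPM) summed over the cells of a class, a UMI being the tag of 1 captured transcript. The values in parentheses are 95% intervals that cover counting error only.

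Prostanoids are short-lived lipid mediators made from arachidonic acid, which phospholipases cut from membrane lipids. Cyclooxygenases turn it into an unstable intermediate, and terminal synthases convert the intermediate into prostaglandin E2, prostaglandin D2, prostacyclin or thromboxane. *Ptgs1* is the cyclooxygenase known for steady expression in vessels, platelets and macrophages, whereas *Ptgs2* is the form known to be switched on by inflammatory cytokines. *Ptges* is the membrane-bound synthase that often accompanies *Ptgs2*. Of the receptors, EP3 (*Ptger3*) couples to inhibitory G proteins and is known for dampening insulin secretion in β-cells, and EP4 (*Ptger4*) couples to stimulatory G proteins and is known from myeloid cells.

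The results turn on *Ptgs2* and *Ptges*, so the sequences around their start sites are shown. Both are from RefSeq on GRCm38.p6 and run 5′ to 3′ from 250 bases before to 50 bases after the start of the gene, which is position 1. The window of *Ptgs2* is chr1:150099781-150100080 on the plus strand and that of *Ptges* is chr2:30903248-30903547 on the minus strand. Capitals mark the matches to the motifs searched.
Ptgs2: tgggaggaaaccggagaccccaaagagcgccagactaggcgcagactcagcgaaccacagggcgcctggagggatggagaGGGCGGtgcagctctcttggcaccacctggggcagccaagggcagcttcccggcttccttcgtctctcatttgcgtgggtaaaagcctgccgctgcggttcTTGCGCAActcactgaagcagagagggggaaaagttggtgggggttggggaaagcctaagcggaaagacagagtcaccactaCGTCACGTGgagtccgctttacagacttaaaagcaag
Ptges: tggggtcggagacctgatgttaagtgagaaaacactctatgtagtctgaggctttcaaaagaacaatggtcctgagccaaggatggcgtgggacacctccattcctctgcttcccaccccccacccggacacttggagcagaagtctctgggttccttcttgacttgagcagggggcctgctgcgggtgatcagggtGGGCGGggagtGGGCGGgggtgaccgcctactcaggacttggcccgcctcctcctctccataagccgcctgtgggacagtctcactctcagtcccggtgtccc
In *Ptgs2* the capitals are a GC box (GGGCGG) at -170 to -165, a palindromic C/EBP motif (TTGCGCAA) at -69 to -62, and a cyclic AMP response element core (CGTCA) at 14 to 18 that overlaps an E-box (CACGTG) at 17 to 22. In *Ptges* they are GC boxes at -53 to -48 and -42 to -37. Searched on both strands of 27025 promoter windows of the same length, the C/EBP palindrome was in 0.185%, the E-box in 7.24%, the CGTCA core in 21% and the GC box in 35.9%. The windows of *Ptgs1*, *Ptger3* and *Ptger4* held 0, 3 and 4 GC boxes and no other motif. None of the 5 windows held a κB consensus (8.18% of all windows), an AP-1 site TGANTCA (7.93%), an interferon-γ activated site TTCNNNGAA (8.47%) or a full response element TGACGTCA (1.88%), which says only that these letters are not in these windows. A match is a description of the sequence and not evidence of binding.

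In GENCODE M21 on the same build, all 5 are protein-coding genes. *Ptgs1* (ENSMUSG00000047250) lies at chr2:36230426-36252272, *Ptgs2* (ENSMUSG00000032487) at chr1:150100031-150108227, *Ptges* (ENSMUSG00000050737) at chr2:30889471-30929863, *Ptger3* (ENSMUSG00000040016) at chr3:157566892-157645888 and *Ptger4* (ENSMUSG00000039942) at chr15:5206661-5244187. The RefSeq start of *Ptges* is inside the longer span that GENCODE gives the gene. The span of *Ptgs1* overlaps *Gm43621* on the opposite strand, that of *Ptges* a pseudogene on its own strand, and that of *Ptger4* the opposite-strand gene *Ttc33*. Whether any of these overlaps affected the counts was not tested.

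The 4 libraries differed in depth and in the cells they kept. There were 1521 cells in the untreated library, 2018 with IL-1β, 2122 under IFN-γ and 1810 with both, at median depths of 15454, 7462.5, 9615 and 11123.5 UMIs. The upper limit of 4000 detected genes had removed 843 barcodes from the untreated library and 146, 345 and 222 from the others. At most 4 barcodes were shared between any pair of libraries, and at most 2 among kept cells. In graph clusters many β-cells stood apart by library. Single clusters held 451 of 454 cells from the untreated library, 869 of 876 from IL-1β, 588 of 596 from IFN-γ and 497 of 505 from both. Other β-cell clusters were mixed, such as 1 with 70, 118, 121 and 57 cells in the same order.

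Mesenchymal cells numbered 13, 25, 24 and 15 in the order untreated, IL-1β, IFN-γ and both, which is kept throughout, endothelial cells 31, 37, 46 and 25, and macrophages 37, 37, 44 and 32. β-cells numbered 1199, 1224, 1351 and 1305, α-cells 91, 350, 301 and 175, and δ-cells 57, 157, 171 and 100. Every marker of the 6 classes was detected in its own class in each library, except *Pdgfra*, which was at 0 in mesenchymal cells under IFN-γ and with both. The non-endocrine classes were assigned by these markers and the endocrine ones by hormone share, so this was partly fixed in advance. The mesenchymal cells leaned toward a pericyte marker, since *Rgs5* was detected in 12, 17, 16 and 8 of them and *Pdgfra* in 1, 1, 0 and 0. Macrophage markers were nearly absent from them, with 0 of 12 detected in the untreated and IL-1β libraries and 2 of 12 in each of the others. Insulin transcripts made up 0.511%, 0.0800%, 2.80% and 0.0921% of their UMIs. With the non-endocrine cells with the most hormone UMIs left out, 151 values stayed the same and 1 moved. The value that moved was *Ptgs2* in mesenchymal cells with both cytokines, at 1111 CPM. The 151 include the β-, α- and δ-cell values, which this setting could not change. Beyond this, the part of insulin RNA in the results was not tested.

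Among cells within the gene limit *Ptgs1* was mainly a transcript of endothelial cells and macrophages, and it was close to absent from endocrine cells. In endothelial cells its level was 66.4 CPM (37.1-109) without treatment, 50.5 (23.1-95.8) with IL-1β, 45.1 (24-77.2) under IFN-γ and 29.6 (11.9-61.0) with both. The untreated library was the highest and the library with both cytokines the lowest, but the intervals of all 4 overlapped. The ratio of both cytokines to untreated was 0.446 (0.154-1.16), resting on 7 and 15 UMIs. Without the upper gene limit it was 0.283 (0.116-0.603). *Ptgs1* was found in 35.5%, 16.2%, 26.1% and 20% of endothelial cells, and in 13.2%, 9.12%, 9.52% and 7.06% after thinning to 2000 UMIs per cell. In macrophages *Ptgs1* was at 24.6 CPM (10.6-48.4), 47.8 (22.9-87.9), 29.6 (14.2-54.4) and 20.9 (7.66-45.4), with no order that held beyond the intervals. The untreated endothelial level was 2.70-fold (1.07-7.35) that of macrophages, and in the treated libraries the interval of this ratio included 1.

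Platelets are another known source of *Ptgs1*, and of the platelet genes *Ppbp* and *Itga2b* neither was detected in macrophages and *Itga2b* had 1 UMI in untreated endothelial cells (4.42 CPM). *Pf4*, which macrophages also express, was at 443 to 2634 CPM in macrophages and at 0, 0, 6.94 and 16.9 CPM in endothelial cells. Mesenchymal cells within the gene limit held 1, 2, 0 and 0 UMIs of *Ptgs1*. The mesenchymal cells above the limit held 5, 17, 23 and 0 UMIs. Such cells are called larger here only for their number of detected genes. These UMIs were in 1 of 7, 8 of 11, 12 of 18 and 0 of 1 cells, at levels of 27.8, 68.6, 45.8 and 0 CPM. The 5079 β-cells held 1 UMI in all, in the IFN-γ library, and no UMI was found in the 917 α-cells or 485 δ-cells, which allows levels of up to 0.409 CPM and 0.944 CPM. *Ptgs1* in β-cells was thus 1 of 60931728 UMIs, at a median depth of at least 8255 UMIs per cell, and this is the background for the shares in endothelial cells. With the gene limit, a difference in *Ptgs1* between conditions was not detectable at this depth in any class.

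**Figure D1:**
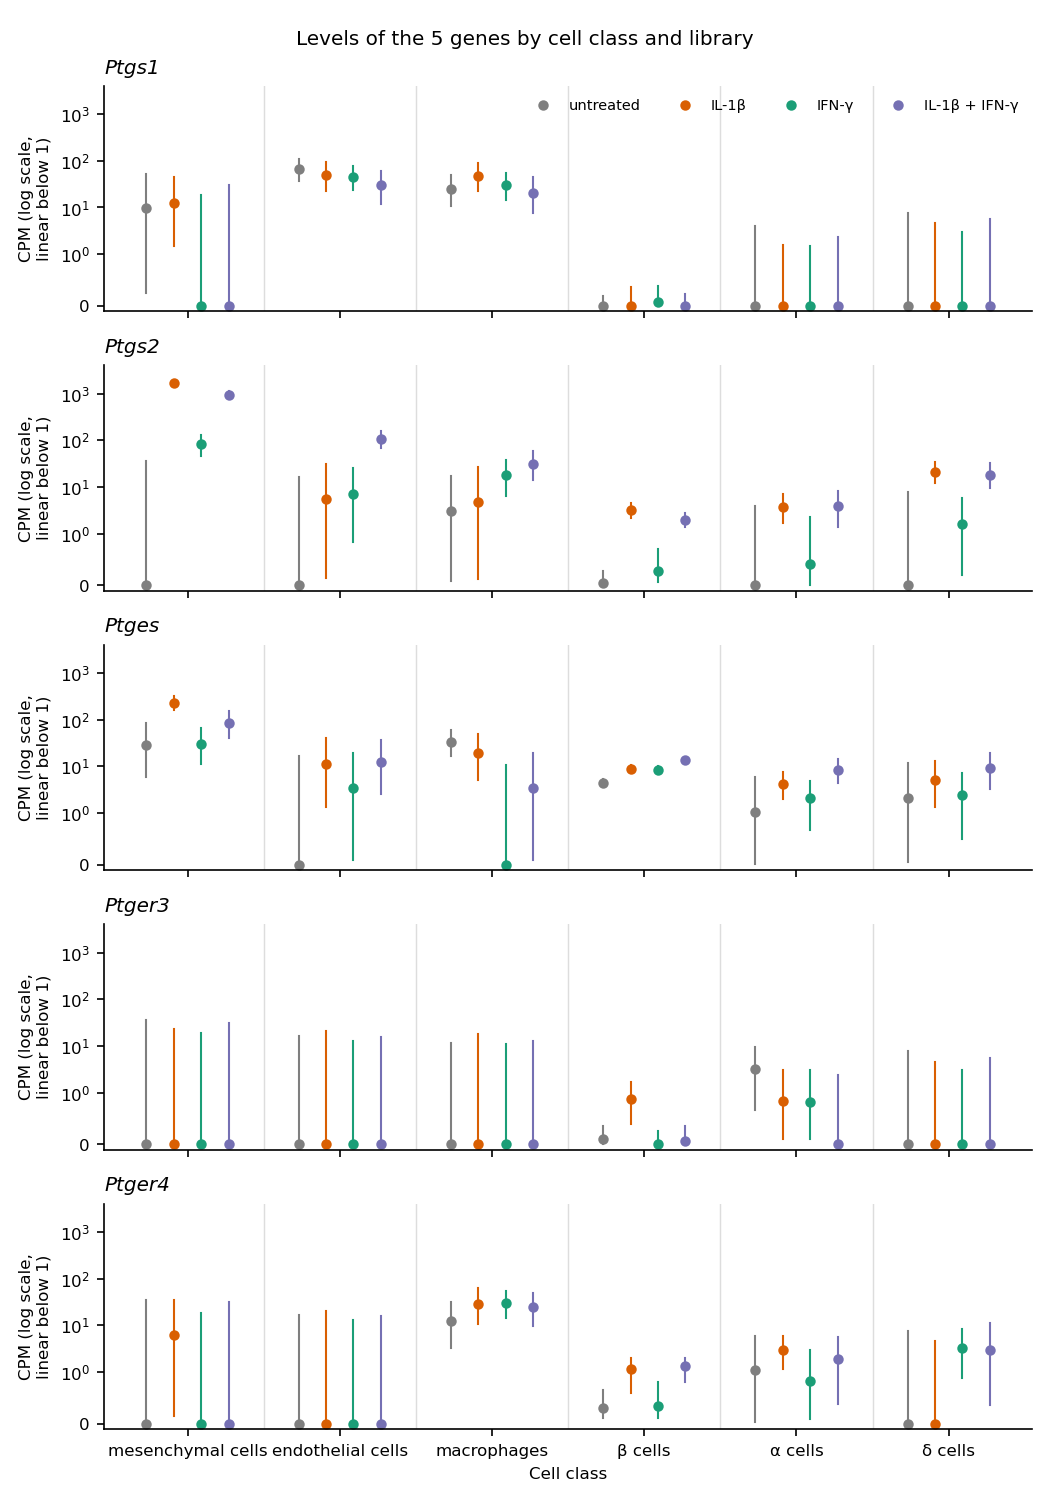
Level of each of the 5 genes in CPM (log scale, linear below 1) by cell class, with the 4 libraries as colored points and 95% counting intervals as bars. Ptgs1 sits in endothelial cells and macrophages, Ptgs2 reaches 1719 CPM in mesenchymal cells with IL-1β, and Ptger3 has no UMI in mesenchymal, endothelial, macrophage or δ-cells.

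*Ptgs2* was concentrated in mesenchymal cells exposed to IL-1β. None of the 13 untreated mesenchymal cells had a UMI, against 275 UMIs in 16 of 25 cells with IL-1β, 16 UMIs in 6 of 24 cells under IFN-γ and 110 UMIs in 7 of 15 cells with both cytokines. The levels were 0 CPM, 1719 CPM (1521-1934), 81.5 CPM (46.6-132) and 921 CPM (757-1110). All 3 treated libraries lay above the untreated one, and their own intervals did not overlap. With classes from graph clusters the levels were 0, 1537, 52.0 and 537 CPM, and with 1 more marker needed the level with both cytokines was 613 CPM. Set against a floor of 3 UMIs in the untreated library, and with the upper gene limit, the level was at least 59.8-fold higher with IL-1β, at least 2.84-fold higher under IFN-γ and at least 32.1-fold higher with both. Without that limit the untreated level was 87.9 CPM and the ratios were 13.0, 2.47 and 9.03. Between the treated libraries, and with the upper gene limit, both cytokines gave 0.536 (0.426-0.671) of the IL-1β level and 11.3-fold (6.66-20.5) the IFN-γ level. These ratios also depended on the gene limit, since the treated levels lay closer together without it.

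The transcripts were spread over several cells. With IL-1β the 3 cells with the most *Ptgs2* held 44, 41 and 36 UMIs and 8 cells held 10 or more. Per 10000 UMIs of a cell the median was 7.99 and the highest value 80.5 with IL-1β. With both cytokines the median was 0 and the highest 40.3, under IFN-γ 0 and 3.32, and without treatment every cell was at 0. With both cytokines 36 of the 110 UMIs came from 1 cell, and without that cell the level was 670 CPM. With IL-1β it was 1495 CPM without the cell that held the most. Thinned to 2000 UMIs per cell, 56.2% of the mesenchymal cells held *Ptgs2* with IL-1β, 9.31% under IFN-γ and 40.0% with both, against 64%, 25% and 46.7% unthinned. Acinar cells gave the background for these shares, with no *Ptgs2* in 19, 15, 28 and 16 cells at median depths of 4149, 1721, 2718.5 and 5575 UMIs, and of the endothelial cells 0 of 31, 1 of 37, 1 of 46 and 4 of 25 held it.

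Within the mesenchymal class *Ptgs2* did not follow the pericyte marker in a fixed way. With IL-1β the cells with *Rgs5* were at 1755 CPM and those without it at 1663 CPM. With both cytokines the cells with *Rgs5* were at 349 CPM and those without it at 1314 CPM. The groups held 17 and 8 cells with IL-1β and 8 and 7 cells with both. The neutrophil chemokine *Cxcl1*, a known target of IL-1β, was at 0, 14854, 932 and 13867 CPM in mesenchymal cells, and the interferon-γ target *Gbp2* at 19.2, 81.2, 2904 and 3877 CPM.

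**Figure D2:**
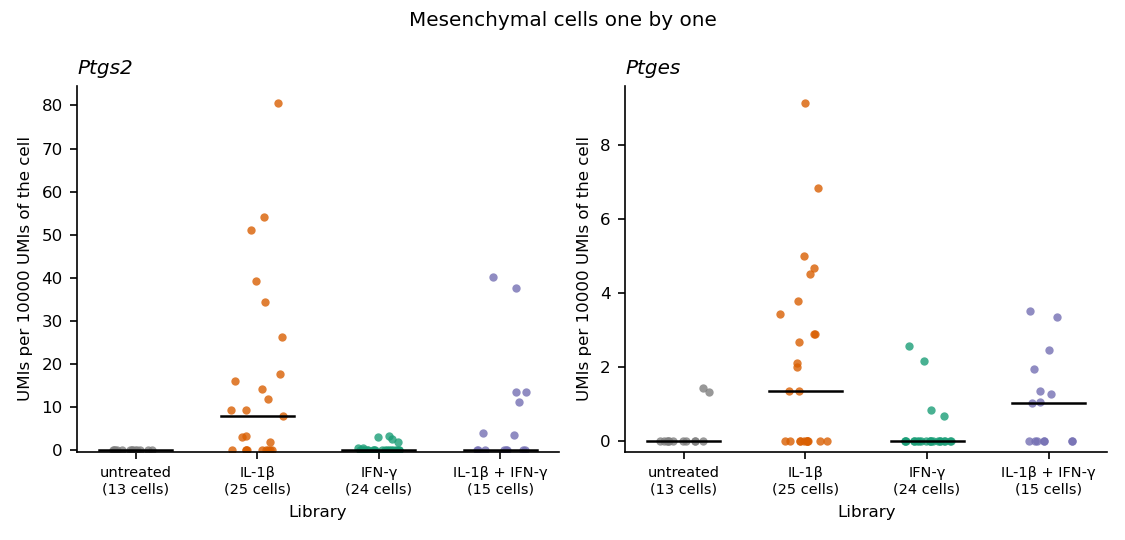
Ptgs2 and Ptges in each mesenchymal cell as UMIs per 10000 UMIs of the cell, by library, with 1 point per cell and a black line at the median. With IL-1β the median of Ptgs2 is 7.99 and the highest cell is at 80.5, whereas all 13 untreated cells are at 0.

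The zero in untreated mesenchymal cells depended on the upper gene limit. Mesenchymal cells above 4000 genes numbered 7 in the untreated library, 11 with IL-1β, 18 under IFN-γ and 1 with both, and they held 25, 191, 136 and 6 UMIs of *Ptgs2*. The 25 untreated UMIs were in 4 cells. With these cells included the levels were 87.9, 1142, 218 and 794 CPM. The order of the libraries was the same, and the ratios to untreated were 13.0 (8.69-20.3) with IL-1β, 2.47 (1.61-3.94) under IFN-γ and 9.03 (5.82-14.5) with both. Whether such barcodes, in this or any other class, were large cells or droplets with more than 1 cell was not tested.

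**Figure D3:**
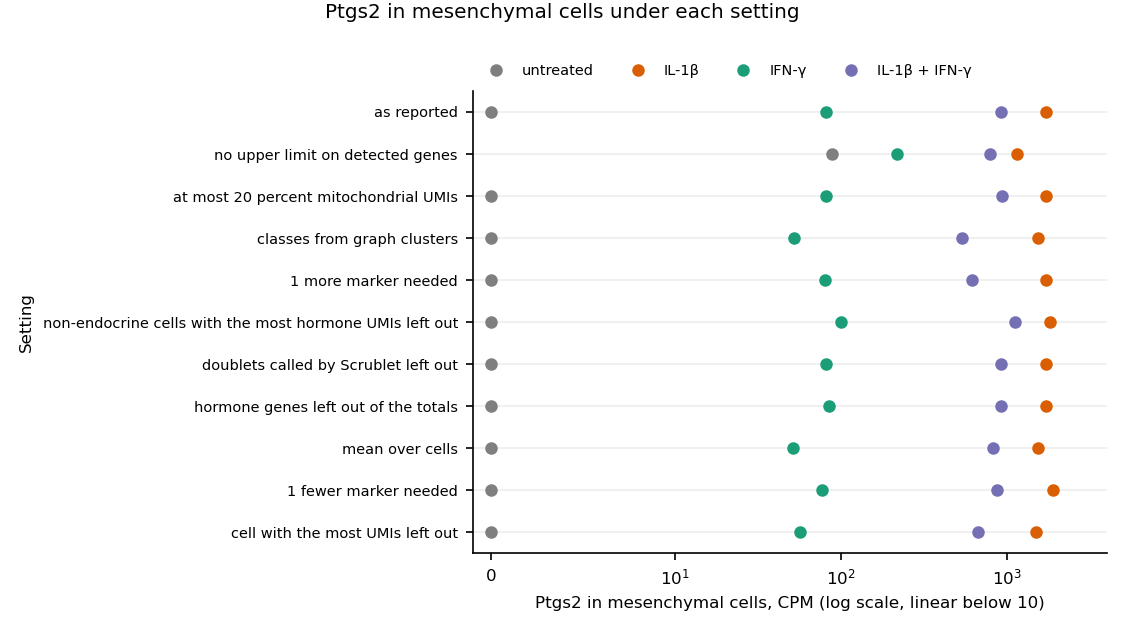
Ptgs2 level in mesenchymal cells in CPM (log scale, linear below 10) under each processing setting, with 1 point per library. IL-1β is the highest and both cytokines the second highest under all settings drawn, and the untreated library leaves 0 only without the upper gene limit, at 87.9 CPM.

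In endothelial cells *Ptgs2* was found where mesenchymal markers were found. The levels were 0, 5.61 (0.142-31.2), 6.94 (0.841-25.1) and 106 CPM (68.4-156) in the order untreated, IL-1β, IFN-γ and both. The library with both cytokines stood above the others, yet 20 of its 25 UMIs came from 1 cell, and without that cell the level was 22.4 CPM. All 6 endothelial cells with a *Ptgs2* UMI in the treated libraries held at least 4 of the 10 mesenchymal markers, while 4, 3, 10 and 9 endothelial cells held 3 or more. Assigned by graph clusters, endothelial cells had no *Ptgs2* with both cytokines. Without the gene limit the levels were 5.39, 386, 13.6 and 107 CPM, and the 5 larger endothelial cells that held *Ptgs2* under IL-1β each held 3 or more mesenchymal markers. Endothelial cells and mesenchymal cells that share a droplet cannot be told apart from endothelial cells with mesenchymal transcripts here.

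Macrophages held little *Ptgs2*, at 3.07 CPM (0.0778-17.1) without treatment, 4.78 (0.121-26.6) with IL-1β, 17.7 (6.51-38.6) under IFN-γ and 31.3 (14.3-59.4) with both. The higher values were in the libraries with IFN-γ, but these rested on 1, 1, 6 and 9 UMIs. The ratio of both cytokines to IL-1β was 6.55 (0.907-287) and that of IL-1β to IFN-γ 0.269 (0.00586-2.22), so no order held beyond the intervals there. The ratio to untreated was 10.2 (1.41-446) with both cytokines, from 9 UMIs against 1, and 5.77 (0.701-266) under IFN-γ. With 1 marker fewer needed for the class, the level with both cytokines was 5.83 CPM and its ratio to untreated 4.31 (0.597-189). The 13 macrophages with a UMI held at least 11 of the 12 macrophage markers and no mesenchymal marker. Mesenchymal cells exceeded macrophages by 359-fold (64.0-14249) with IL-1β, 4.59-fold (1.71-14.3) under IFN-γ and 29.4-fold (15.0-66.1) with both.

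In the libraries with IL-1β, *Ptgs2* was highest in δ-cells among the 3 endocrine classes studied. Pancreatic polypeptide (PP) cells, outside these 3 classes, were at 16.3 CPM with IL-1β and 8.92 CPM with both, from 6 UMIs each. Under IFN-γ the ratio of δ-cells to β-cells was 5.87 (0.531-41.0). In δ-cells there were 0, 17, 2 and 12 UMIs, which gave 0, 21.3 (12.4-34.1), 1.61 (0.195-5.82) and 18.2 CPM (9.41-31.8). In β-cells 1, 33, 4 and 32 UMIs gave 0.0499 (0.00126-0.278), 3.19 (2.20-4.48), 0.274 (0.0748-0.703) and 2.0 CPM (1.37-2.83). In α-cells 0, 9, 1 and 6 UMIs gave 0, 3.74 (1.71-7.10), 0.413 (0.0104-2.30) and 3.81 CPM (1.40-8.30), and the 6 UMIs with both cytokines were in 1 cell. The β-cell level with both cytokines was 1.21 CPM with classes from graph clusters and 3.22 CPM with hormone genes left out of the totals. In all 3 classes the libraries with IL-1β were the high ones, and both cytokines and IL-1β alone did not differ beyond their intervals. The ratio of both to IL-1β was 0.628 (0.374-1.05) in β-cells, 1.02 (0.298-3.20) in α-cells and 0.855 (0.373-1.90) in δ-cells.

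Against the untreated library *Ptgs2* in β-cells was 63.9-fold higher (10.7-2601) with IL-1β, 5.50-fold (0.544-271) under IFN-γ and 40.2-fold (6.71-1635) with both, all from 1 untreated UMI. Without the β-cell that held the most *Ptgs2* in each library it was at least 14.9-fold higher with IL-1β and at least 11.3-fold higher with both. In δ-cells, where the untreated library had no UMI, it was at least 3.40-fold higher with IL-1β and at least 2.90-fold with both. This zero also depended on the gene limit, since 3 of the 18 larger untreated δ-cells held 4 UMIs, and with the larger cells included the ratios in δ-cells were 4.25 (1.38-17.3) and 4.27 (1.34-17.8). Between classes, δ-cells exceeded β-cells by 6.67-fold (3.49-12.3) with IL-1β and 9.09-fold (4.26-18.1) with both, and exceeded α-cells by 5.69-fold (2.40-14.5) and 4.78-fold (1.66-15.5). α-cells and β-cells did not separate, at a ratio of 1.17 (0.494-2.50) with IL-1β. Mesenchymal cells were still 80.7-fold (49.5-141) above δ-cells and 539-fold (375-798) above β-cells with IL-1β.

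In β- and δ-cells the UMIs of *Ptgs2* were not in cells with mesenchymal markers. Every β-cell and δ-cell with a UMI lacked all mesenchymal markers, as did 5 of 6 such α-cells with IL-1β. Such markers were rare in these classes as a whole, with 2 UMIs of *Col3a1* and *Dcn* in β-cells and 0 in δ-cells with IL-1β. Their lack in single cells therefore cannot tell where a UMI came from. Summed over the class, *Col3a1* and *Dcn* with IL-1β stood in β-cells at 0.00446% and in δ-cells at 0% of their mesenchymal level, while *Ptgs2* stood at 0.186% and 1.24%. With both cytokines the values were 0.00389% and 0% for the matrix genes and 0.217% and 1.98% for *Ptgs2*. In α-cells the gap was narrower, at 0.0671% against 0.218% with IL-1β and 0.237% against 0.414% with both, where the matrix genes and *Ptgs2* each had 6 UMIs. The part of mesenchymal RNA in the β-, α- and δ-cell values was not tested. Thinned to 4000 UMIs, *Ptgs2* was detected with IL-1β in 0.902% of β-cells, 0.962% of α-cells and 5.07% of δ-cells, against 1.63%, 1.71% and 7.01% unthinned.

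*Ptges*, the synthase that acts after the cyclooxygenases, was also highest in mesenchymal cells with IL-1β. In these cells 3, 37, 6 and 10 UMIs gave 28.7 (5.93-84.0), 231 (163-319), 30.6 (11.2-66.5) and 83.7 CPM (40.2-154). With the upper gene limit, the IL-1β library stood above the other 3 without overlap of the intervals. Its ratio to untreated was 8.05 (2.55-40.8), against 1.06 (0.227-6.57) under IFN-γ and 2.91 (0.75-16.5) with both, and both cytokines gave 0.362 (0.161-0.743) of the level with IL-1β. These ratios also depended on the gene limit. With the larger cells included, the ratios to untreated were 10.7 (3.44-53.7), 7.19 (2.33-36.0) and 9.08 (2.53-49.3). All 3 treated libraries then stood above the untreated one, and the intervals of the 3 ratios overlapped. The separation of IL-1β from the other treated libraries, including the 0.362, thus rested on the gene limit.

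*Ptgs2* and *Ptges* were often in the same mesenchymal cell. With IL-1β, 11 of 16 cells with *Ptgs2* held *Ptges*, against 3 of 9 without, and with both cytokines it was 5 of 7 against 3 of 8. The cells with *Ptgs2* were deeper, at a median of 5668 UMIs against 3735 with IL-1β and 8926 against 6885 with both. The part of depth in this was not tested. *Nos2*, the inducible nitric oxide synthase, was in 5 of the 7 mesenchymal cells with *Ptgs2* and 3 of the 8 without it under both cytokines. In the same library it was in 3 of 16 acinar cells, 1 of 32 macrophages, 7 of 25 endothelial cells and 5 of 6 ductal cells. The part of background RNA in these shares was not tested. With IL-1β alone *Nos2* was in none of the 25 mesenchymal cells.

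In β-cells the level of *Ptges* was higher in all 3 treated libraries than in the untreated one. There were 89, 92, 123 and 216 UMIs in 85, 83, 116 and 194 cells, which gave 4.44 (3.57-5.46), 8.90 (7.17-10.9), 8.44 (7.01-10.1) and 13.5 CPM (11.8-15.5). The library with both cytokines was the highest, the untreated library the lowest, and IL-1β and IFN-γ overlapped. The ratios to untreated were 2.0 (1.48-2.71), 1.90 (1.44-2.53) and 3.05 (2.37-3.94). Both cytokines gave 1.52-fold (1.19-1.96) the level with IL-1β and 1.60-fold (1.28-2.02) that under IFN-γ. Thinned to 4000 UMIs, the share of β-cells with *Ptges* was 1.78%, 3.47%, 3.37% and 5.06%, against 7.09%, 6.78%, 8.59% and 14.9% unthinned. The untreated level did not separate from that of α-cells, at a ratio of 4.12 (0.720-164), or of δ-cells, at 2.12 (0.372-84.8). Untreated endothelial cells had no *Ptges* UMI, but a count of 0 there allowed 13.3 CPM, so presence in untreated β-cells beyond background was not shown. In the treated libraries endothelial cells were at 11.2, 3.47 and 12.7 CPM, from 2, 1 and 3 UMIs. Presence in treated β-cells beyond background was thus not shown either.

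The CPM scale itself differed between the β-cell libraries. Insulin took 42.0%, 21.5%, 28.0% and 33.2% of their UMIs, and the median log2 ratio over all tested genes was 0.35 with IL-1β, 0.32 under IFN-γ and 0.0020 with both. Relative to that median the log2 ratio of *Ptges* in β-cells was 0.65, 0.61 and 1.60. With hormone genes left out of the totals its ratios were 1.46, 1.51 and 2.57, and as a mean over cells they were 1.41, 1.36 and 2.18, so the direction held while the size depended on the scale.

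In α- and δ-cells *Ptges* rested on few UMIs. In α-cells *Ptges* was at 1.08 (0.0273-6.01), 4.16 (1.99-7.65), 2.06 (0.670-4.81) and 8.26 CPM (4.40-14.1), and in δ-cells at 2.09 (0.0529-11.6), 5.01 (1.37-12.8), 2.42 (0.498-7.06) and 9.11 CPM (3.34-19.8). Both cytokines gave the highest value in each class, with intervals that overlapped those with IL-1β, and against 1 untreated UMI the ratio was 7.66 (1.15-325) in α-cells and 4.36 (0.529-200) in δ-cells. β-cells exceeded α-cells by 2.14-fold (1.11-4.61) with IL-1β and 4.09-fold (1.71-12.8) under IFN-γ. With both cytokines the ratio was 1.64 (0.937-3.12).

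In macrophages the untreated library had the highest value. The *Ptges* level there was 33.8 CPM (16.9-60.5) without treatment, 19.1 (5.21-49.0) with IL-1β, 0 under IFN-γ and 3.48 (0.0880-19.4) with both. However, 10 of the 11 untreated UMIs were in 1 cell, and without it the untreated level was 3.17 CPM. In endothelial cells there were 0, 2, 1 and 3 UMIs of *Ptges*, so no ratio is given.

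With both cytokines *Nos2* was found more often in β-cells with *Ptges* than in those without. There 160 of 194 cells with *Ptges* held *Nos2* (82.5%, 76.4-87.5), against 766 of 1111 without it (68.9%, 66.1-71.7). With IL-1β it was 32 of 83 (38.6%, 28.1-49.9) against 312 of 1141 (27.3%, 24.8-30), with intervals that overlapped. Without treatment 0 of 85 cells with *Ptges* held *Nos2*, and under IFN-γ 1 of 116. The cells with *Ptges* were deeper, at medians of 13765 against 11793 UMIs and 8999 against 8169 UMIs, and the part of depth was not tested. *Ptges* was in 4 of 20 β-cells with *Ptgs2* under both cytokines (20%, 5.73-43.7) and in 190 of 1285 without it (14.8%). With IL-1β it was in 0 of 20, with an upper limit of 16.8%, and in 83 of 1204 (6.89%) without *Ptgs2*.

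**Figure D4:**
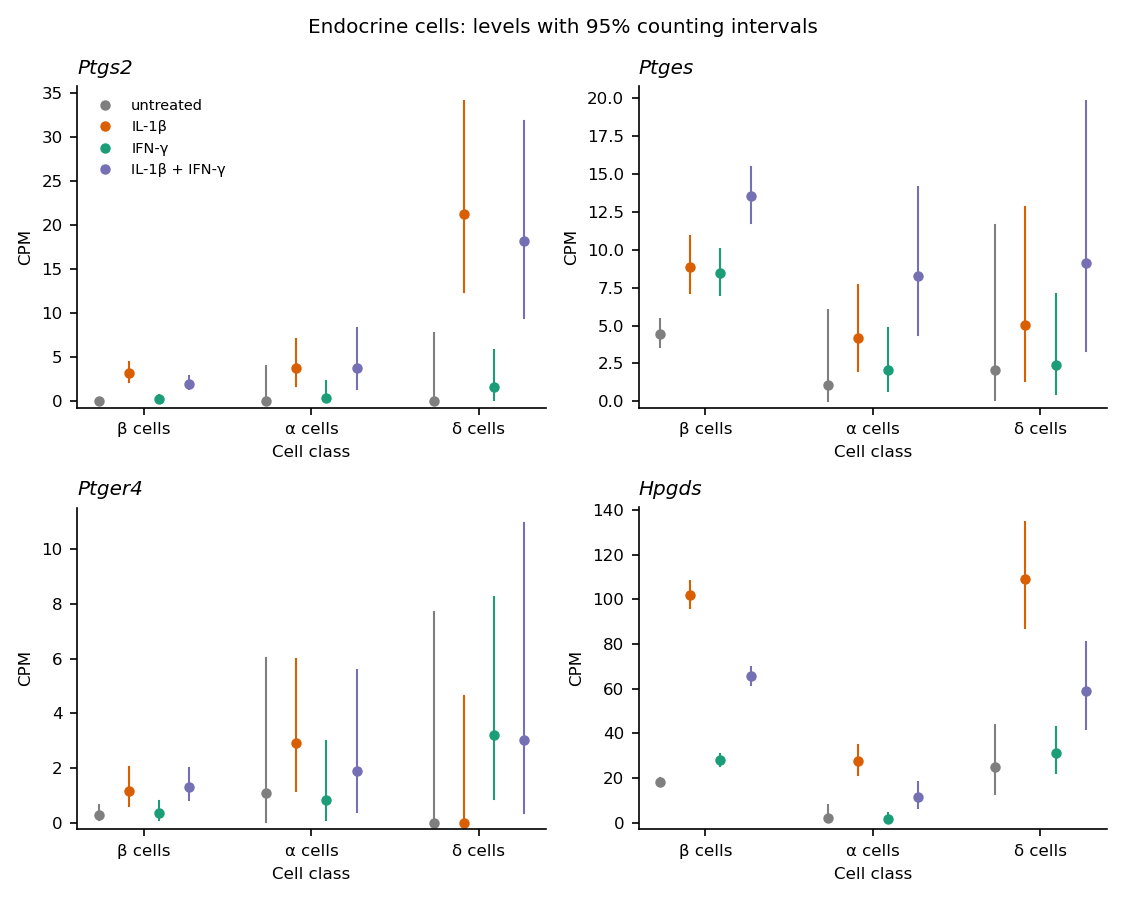
Levels of Ptgs2, Ptges, Ptger4 and the prostaglandin D synthase Hpgds in CPM in β-, α- and δ-cells, with the 4 libraries as colored points and 95% counting intervals as bars. Ptgs2 is highest in δ-cells of the libraries with IL-1β (21.3 and 18.2 CPM), Ptges is highest with both cytokines in each class, and Hpgds is highest with IL-1β alone.

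The receptor *Ptger4* had its highest level per UMI in macrophages. There 4, 6, 10 and 7 UMIs gave 12.3 (3.35-31.5), 28.7 (10.5-62.4), 29.6 (14.2-54.4) and 24.3 CPM (9.79-50.2). The treated libraries lay higher, but the intervals overlapped, with ratios of 2.33 (0.553-11.2), 2.41 (0.694-10.5) and 1.98 (0.503-9.22). The far more numerous β-cells held more UMIs than macrophages in all but the IFN-γ library, at a lower level. Their 6, 12, 5 and 21 UMIs gave 0.299 (0.110-0.652), 1.16 (0.600-2.03), 0.343 (0.111-0.801) and 1.31 CPM (0.814-2.01). The libraries with IL-1β were the higher ones, at 3.88-fold (1.35-12.6) with IL-1β and 4.39-fold (1.71-13.3) with both. Macrophages exceeded β-cells by 41.1-fold (8.52-173) without treatment and 18.5-fold (6.65-45.2) with both.

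The β-cell values of *Ptger4* depended on which β-cells were counted. In β-cells with fewer than 2 markers of any non-endocrine class the ratios were 2.04 (0.588-7.36) with IL-1β and 3.20 (1.21-9.92) with both, and with hormone genes left out of the totals the ratio with IL-1β was 2.83 (0.982-9.18). Thinned to 4000 UMIs, 0.132%, 0.455%, 0.103% and 0.489% of β-cells held a UMI, against 0.50%, 0.980%, 0.370% and 1.38% unthinned. Endothelial cells had no *Ptger4* UMI in any library but were too few to set a background at this level, since a count of 0 there allowed 10.4 to 16.8 CPM. The intervals of α-cells, with 1, 7, 2 and 3 UMIs, overlapped those of β-cells, and δ-cells held 0, 0, 4 and 2 UMIs.

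*Ptger3*, the receptor known from β-cell physiology, was almost undetected. The β-cells held 2, 9, 0 and 1 UMIs, which is 0.0998, 0.870, 0 and 0.0626 CPM. The 9 UMIs with IL-1β were in 6 cells, with 4 in 1 of them, and without that cell the level was 0.484 CPM. The ratio of IL-1β to untreated was 8.72 (1.80-82.9), and 2.69 (1.0-6.97) without the upper gene limit. In α-cells there were 3, 2, 2 and 0 UMIs, and none of the mesenchymal, endothelial, macrophage or δ-cells held one. At this depth a level of 0 in β-cells under IFN-γ still allows 0.206 CPM. Of the 9 prostanoid receptors listed, the others at 20 CPM or more in a class were the prostacyclin receptor *Ptgir* and the thromboxane receptor *Tbxa2r*. *Ptgir* was at 76.6, 68.7, 40.8 and 33.5 CPM in mesenchymal cells, from 8, 11, 8 and 4 UMIs, with intervals of every ratio that included 1.

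The wider pathway was described with 58 listed genes, of which *Pla2g2a* was not analysed here. They are the 5 above and lists of phospholipases, terminal synthases, prostanoid receptors, transport and breakdown genes, lipoxygenases and G protein subunits. A gene was counted where it had at least 20 UMIs over the untreated and treated libraries of a class, and called where the ratio was 2-fold or more. In mesenchymal cells with IL-1β 9 genes were counted. *Ptgs2*, *Ptges* and *Pla2g4a*, the cytosolic phospholipase A2 that feeds cyclooxygenases, were higher and *Akr1b3* and *Gna11* lower, against 9.18% higher and 11.9% lower of all genes in the comparison. With both cytokines *Ptgs2* was higher and *Akr1b3* lower of 7 genes (11.6% and 15.6% of all genes). Under IFN-γ none of 7 was higher and *Akr1b3* lower (9.82% and 10.6%). *Ptgs2* under IFN-γ, and *Ptges* under IFN-γ and with both cytokines, fell short of 20 UMIs and were not counted. *Pla2g4a* in mesenchymal cells was at 67.1, 162, 122 and 92.1 CPM, and the ratio with IL-1β was 2.42 (1.02-6.61). *Akr1b3*, an aldo-keto reductase, was at 211, 50, 76.4 and 67.0 CPM. The median log2 ratio of the list under IL-1β was 0.07, beside -0.02 over all genes.

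In β-cells 30 genes of the lists were counted with IL-1β. *Ptgs2*, *Ptges*, *Ptges3*, *Hpgds*, *Abcc4*, *Alox12* and *Gnai3* were at least 2-fold higher (7 genes, against 17.5% of all genes) and *Pla2g6*, *Pla2g2f* and *Gnai1* lower (3 genes, against 6.34%). *Ptges* was just past the threshold here and fell below it with hormone genes left out (1.46) and as a mean over cells (1.41). With IFN-γ 1 of 28 was higher, *Pla2g16* (6.57% of all genes), and none lower (0.789%). With both cytokines *Ptgs2*, *Ptges*, *Ptger4*, *Pla2g16*, *Hpgds* and *Alox12* were higher (6 of 31, against 11.7%) and *Pla2g6*, *Pla2g2f*, *Alox5ap* and *Gnai1* lower (4, against 12.8%). *Pla2g6* fell short of the level for naming and is named after its values were seen. The median log2 ratio of the list was 0.41, 0.14 and -0.44, beside 0.35, 0.32 and 0.0020 over all genes.

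*Hpgds*, the hematopoietic prostaglandin D synthase, had the largest ratio with IL-1β among the named synthases in β-cells. It was at 18.3, 102, 28.1 and 65.8 CPM in β-cells, at 2.16, 27.4, 1.65 and 11.4 CPM in α-cells and at 25.1, 109, 31.4 and 59.2 CPM in δ-cells. In each of these classes IL-1β alone was the highest library, with ratios of 5.59 (4.96-6.31), 12.7 (3.38-107) and 4.34 (2.36-8.73). Relative to the median of all genes its log2 ratio in β-cells was 2.13 with IL-1β, 0.31 under IFN-γ and 1.85 with both, against 0.81, 0.40 and 0.77 for *Ptges3*, the cytosolic prostaglandin E synthase. In macrophages *Hpgds* was at 157, 100, 130 and 139 CPM, with intervals of every ratio that included 1. *Abcc4*, a pump that exports prostaglandins, was likewise highest with IL-1β alone in β-cells, at 8.93, 28.4, 7.89 and 14.6 CPM.

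Among other genes of the pathway, *Pla2g16* was higher under IFN-γ in β-, α- and δ-cells, while the rest differed by class or were lower. *Pla2g16*, a phospholipase A2, was at 28.2, 45.4, 117 and 152 CPM in β-cells, and both libraries with IFN-γ were above the others in α-cells (69.0, 64.9, 228 and 297 CPM) and δ-cells (96.2, 96.5, 266 and 481 CPM). The arachidonate lipoxygenase *Alox12* was at 0.0499, 5.22, 0.412 and 5.26 CPM in β-cells, where the libraries with IL-1β were high, and at 17.7, 0, 146 and 67.7 CPM in endothelial cells, where the libraries with IFN-γ were high. *Gnai1*, the inhibitory G protein subunit to which receptors such as EP3 can couple, was at 14.5, 4.54, 10.8 and 4.19 CPM in β-cells and 99.3, 29.5, 77.6 and 24.8 CPM in α-cells, lower with IL-1β in both. *Pla2g2f*, a secreted phospholipase A2, was at 60.8, 22.8, 44.5 and 25.7 CPM in β-cells.

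In α-cells with IL-1β, *Hpgds*, *Slco2a1* and *Abcc4* were higher and *Pla2g6*, *Pla2g2f*, *Ptges2*, *Fam213b*, *Gnai1*, *Gnaz* and *Gnao1* lower of 25 (9.29% and 8.75% of all genes). With both cytokines *Pla2g16* and *Hpgds* were higher and *Pla2g6*, *Pla2g2f*, *Fam213b*, *Zadh2*, *Gnai1* and *Gnao1* lower of 21 (10.1% and 13%). Under IFN-γ *Pla2g16* was higher and *Pla2g6* and *Ptges2* lower of 23 (6.48% and 2.09%). *Ptges2*, like *Pla2g6*, is named after its values were seen. The median log2 ratio of the list in α-cells was -0.22, -0.03 and -0.75 in the order IL-1β, IFN-γ and both, beside -0.04, 0.09 and -0.14 over all genes.

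In δ-cells with IL-1β *Hpgds* was higher and *Pla2g6*, *Pla2g2f*, *Fam213b* and *Gnao1* lower of 21 (10.9% and 8.45%). With both cytokines *Pla2g16* and *Hpgds* were higher and *Pla2g6*, *Pla2g2f*, *Pla2g12a*, *Cbr1*, *Fam213b*, *Ptgr2*, *Gnao1* and *Gna11* lower of 17 (12.9% and 15.3%). Under IFN-γ *Pla2g16* was higher and *Pla2g6*, *Fam213b* and *Gnaz* lower of 21 (5.85% and 3.41%). The median log2 ratio of the list in δ-cells was -0.17, -0.06 and -0.88, beside 0.06, -0.01 and -0.10 over all genes. In α- and δ-cells neither *Ptgs2* nor *Ptges* reached 20 UMIs in any comparison, so the cyclooxygenase branch could not be counted there.

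In endothelial cells a phospholipase, a transporter, a lipoxygenase and a receptor differed between libraries. With IFN-γ *Pla2g16*, *Slco2a1* and *Alox12* were higher and *Tbxa2r* lower of 13 genes (11% and 7.61% of all genes). With both cytokines *Ptgs2*, *Pla2g16* and *Alox12* were higher and *Ptgs1*, *Tbxa2r* and *Gna11* lower of 14 (10.2% and 12%), where the interval of the ratio of *Ptgs1* (0.446, 0.154-1.16) included 1. *Ptgs2* had 20 of its 25 UMIs in 1 cell there and would not have been counted without it. With IL-1β none of 11 was higher and *Tbxa2r* lower (6.75% and 6.1%). *Tbxa2r*, the thromboxane receptor, was at 111, 11.2, 6.94 and 0 CPM from 25, 2, 2 and 0 UMIs, so all treated libraries were lower. *Slco2a1*, the prostaglandin uptake transporter, was at 53.1, 67.3, 309 and 63.4 CPM, and the 89 UMIs under IFN-γ were spread over 24 cells with at most 21 in 1 cell.

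In macrophages none of 16 genes was higher with IL-1β (6.43% of all genes), none of 17 under IFN-γ (10%) and 1 of 16, *Pla2g15*, with both (8.63%). *Hpgd* and *Alox5ap* were the 2 lower genes in each of the 3 comparisons (6.03%, 4.48% and 6.98% of all genes). *Hpgd*, the dehydrogenase that starts prostaglandin breakdown, was at 73.8, 0, 14.8 and 24.3 CPM from 24, 0, 5 and 7 UMIs. *Alox5ap*, the activating protein of the leukotriene pathway, was at 184, 81.3, 68.0 and 45.2 CPM, with ratios of 0.441 (0.241-0.765), 0.369 (0.218-0.606) and 0.245 (0.123-0.452). *Tbxas1*, the thromboxane synthase, was at 67.6, 66.9, 94.7 and 55.6 CPM, and the intervals of its ratios included 1.

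**Figure D5:**
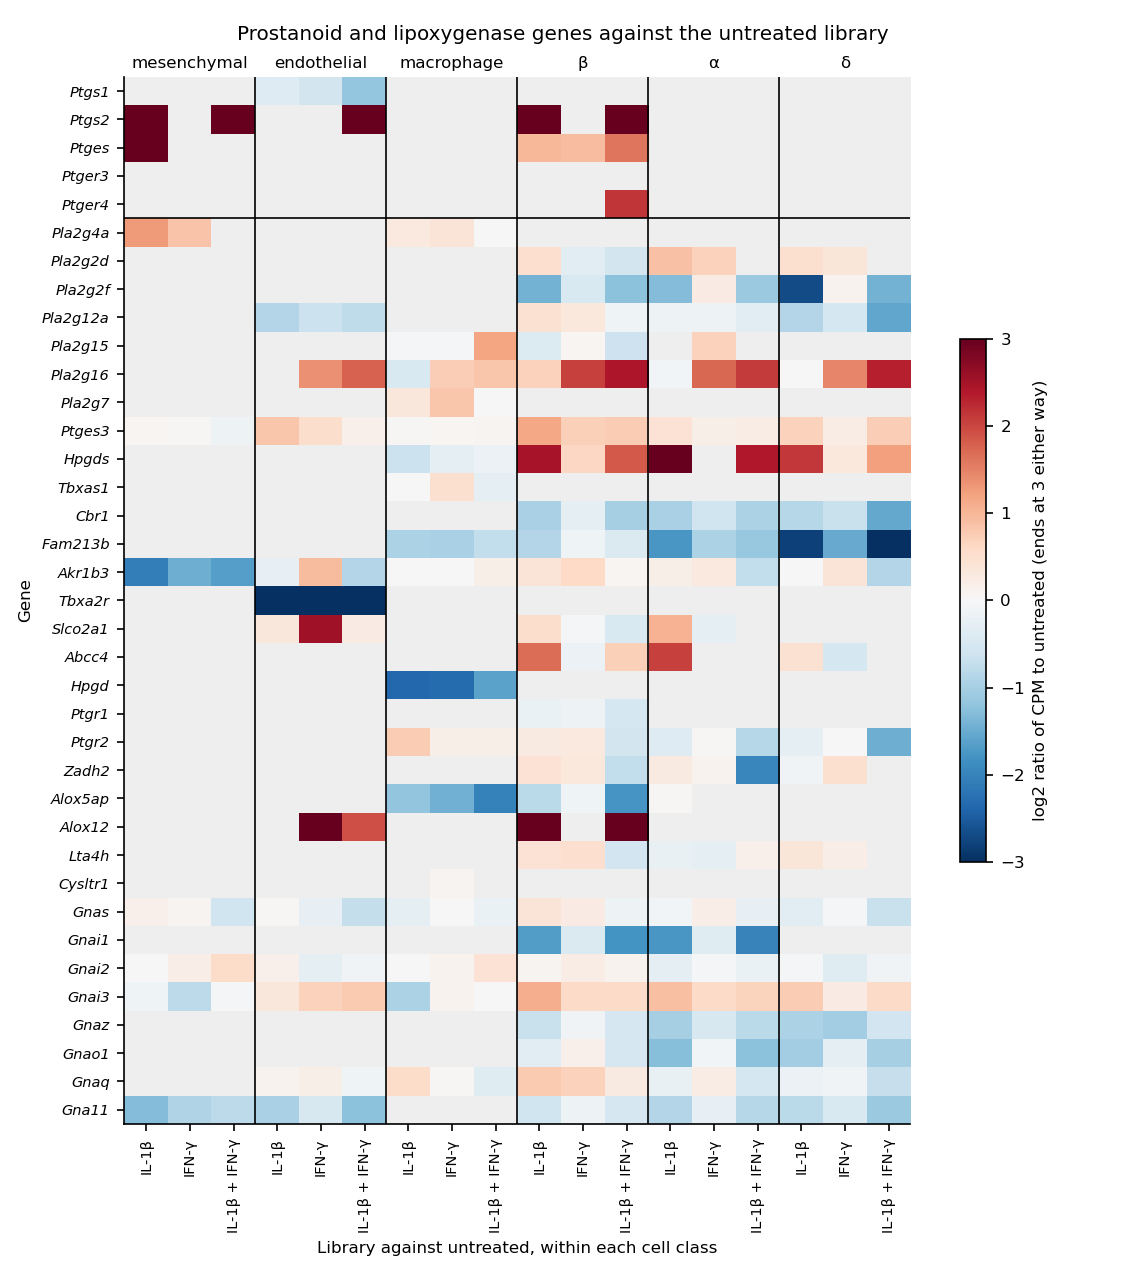
Log2 ratio of CPM to the untreated library for the 5 genes and the named list genes (rows) in each treated library of each class (columns), with colors that end at 3 in either direction and grey where a gene had fewer than 20 UMIs over both libraries. Hpgds is higher with IL-1β in β-, α- and δ-cells, Pla2g16 under IFN-γ in all 3, and Tbxa2r is lower in all treated endothelial libraries.

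The genes with the profiles most like those of the 5 genes were found by Pearson correlation of log2(CPM + 1) over the 24 sums of class and library, among 13067 genes with at least 50 UMIs. These sums share libraries and classes, so the values are descriptions. *Ptgs1* was most like *Ggta1* (0.984), *Pald1* (0.958) and *Acvrl1* (0.946). *Ptgs2* was most like *Gm12840* (0.893), *Cxcl5* (0.861) and *Gpm6b* (0.857). *Ptges* was most like *Ube2j1* (0.758), *Cxcl3* (0.740) and *Pi15* (0.738), and *Ptger4* most like *Lat2* (0.903), *Gm20707* (0.901) and *Itgb2* (0.899). *Ptger3* had too few UMIs to be compared. Under a Spearman correlation other genes led for all 4.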

How the data were processed

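Raw UMI counts per gene and barcode were used as deposited. The authors made them with Cell Ranger, and their later Seurat normalization is not in these files. The submitters' processing notes name mm10, and 3.0.0 is the software version in the matrix headers. Sources disagree on the kit, which the labels give as version 2 and the paper as version 3. Barcodes with 200 to 4000 genes and no more than 12% mitochondrial UMIs were analysed. Mesenchymal and endothelial cells and macrophages had to hold 3 or more markers of the class, and endocrine cells a hormone at 1% or more of UMIs that led the next by 4 times. Intervals were exact Poisson (levels), binomial (shares) or conditional binomial (ratios), with a floor of 3 UMIs. List genes were named where a class reached 20 CPM. The 5 genes and the lists were chosen with earlier results of these data known. *Pla2g2a*, 1 gene of the lists, was not analysed here. Doublets were not removed beyond the gene limit (Scrublet called 11, 22, 21 and 21 cells). Alternatives covered both filters, class assignment, doublets, totals, thinning and list thresholds. Calculations used pandas 2.3.3, scipy 1.17.1 and numpy 2.4.6 in Python 3.11.15. Graph clusters came from scikit-learn 1.9.0, scanpy 1.11.5 and igraph 0.11.9, and plots from matplotlib 3.10.9.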

Additional observations from a re-analysis of the deposited data

Results flagged for a closer look

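*Ptges* in macrophages was lower than untreated, at most 0.262 of it under IFN-γ and 0.103 of it with both cytokines, while in β-cells, and with both cytokines in α-cells, it was higher. The difference between the classes was not tested, and 10 of the 11 untreated macrophage UMIs were in 1 cell. Without that cell the untreated level was 3.17 CPM, against 3.48 CPM with both cytokines, so the lower direction with both rested on it. With 1 marker fewer needed for the class the macrophage ratios of *Ptges* were 0.411 (0.0954-1.39) and 0.653 (0.280-1.57).

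Signals of the 5 genes also appeared in cells outside the comparisons. Ductal cells with IL-1β held 16 UMIs of *Ptgs2*, against 3 without treatment, 8 under IFN-γ (41.2 CPM) and 0 with both. Of these 16 UMIs 11 were in 1 cell, and without it the level was 69.9 CPM in place of 189 CPM. PP cells, the pancreatic polypeptide cells, held 6 with IL-1β (16.3 CPM) and 6 with both cytokines (8.92 CPM), against 0. Acinar cells held 11 UMIs of *Ptger3* with IL-1β, 7 under IFN-γ and 5 with both, against 0 in 19 untreated cells, and this was more *Ptger3* than in any of the 6 classes studied, at 118, 43.9 and 46.8 CPM.

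Cells assigned to no class held 61 UMIs of *Ptgs2* and 11 of *Ptges* with IL-1β, of which 54 of *Ptgs2* were in 1 cell with 2 mesenchymal markers, 1 short of the class.

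Cells above the upper gene limit held further UMIs. For *Ptgs2* there were 191 in mesenchymal cells with IL-1β and 136 under IFN-γ, against 25 untreated. There were 116 in 6 endothelial cells with IL-1β and 22 in 9 with both, all 22 of them in 1 cell, against 4 in 26 untreated cells, and 17 in β-cells with IL-1β and 4 with both, against 0 in 699 untreated β-cells. For *Ptges* there were 9 in mesenchymal cells with IL-1β, 47 under IFN-γ and 4 with both, against 0 untreated, and 13 in endothelial cells with IL-1β and 8 with both, against 2 untreated. The larger β-cells held 11 UMIs of *Ptges* with IL-1β and 42 with both, against 100 in the 699 untreated cells and 24 under IFN-γ, which is 11.0, 15.2, 4.83 and 7.63 CPM in that order. The larger α-cells held 4 with IL-1β, against 0 untreated. All 5 of these endothelial cells with *Ptgs2* and IL-1β held 3 or more mesenchymal markers.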

How the results depend on the processing

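Of 1661 values recomputed under the alternatives, 1542 stayed the same, 119 moved and 0 reversed. Same means within the counting interval for levels, ratios and shares, within 1.5 times for counts of list genes, and the same genes for similar profiles. Only a ratio whose interval left out 1 could be labelled reversed, so most values could not be. Ratios against a count of 0 were not included. Values that a setting could not alter were counted as the same. *Ptgs2* in mesenchymal cells moved without the upper gene limit, to 87.9 CPM untreated, 1142 with IL-1β and 218 under IFN-γ. With both cytokines it was 537 CPM with classes from graph clusters, 613 with 1 more marker needed and 1111 without the cells with the most hormone UMIs. Without the cell with the most UMIs, an alternative chosen after seeing the data, it was 670 with both and 1495 with IL-1β. *Ptgs2* with both cytokines was 0 CPM in endothelial cells from clusters and 22.4 without the cell with the most UMIs, 5.83 CPM in macrophages with 1 fewer marker needed (also chosen after seeing the data, as were the β-cells with fewer than 2 non-endocrine markers), and in β-cells 1.21 CPM from clusters and 3.22 with hormone genes left out of the totals. The ratio of *Ptges* in β-cells to untreated was 1.46 with IL-1β with hormone genes left out, and as a mean over cells 1.41 with IL-1β, 1.36 under IFN-γ and 2.18 with both. Thinning moved the share of mesenchymal cells with *Ptgs2* and IFN-γ to 9.31%, and that of β-cells with *Ptges* to 1.78%, 3.47%, 3.37% and 5.06%. The causes of these moves were not tested, except that thinning removes UMIs by construction. A mitochondrial limit of 20% and removal of doublets called by Scrublet moved none of the values of the 5 genes.

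The limits are those of 1 library per condition, of 13 to 25 mesenchymal cells per library and of unequal depth. Another 12 cells fell 1 marker short of the mesenchymal class and 21 of its 77 cells held just enough. Clusters put 131 cells in the class, of which 76 were shared. The floor of 3 UMIs was 15.3 to 28.7 CPM in mesenchymal cells, 10.4 to 16.8 in endothelial cells and 8.87 to 14.3 in macrophages. No paired analysis was possible because each condition had 1 library. With at least 10 or at least 50 UMIs needed in place of 20, 13 and 18 of 36 counts of list genes moved, and the genes with the most similar profiles differed for 3 of 4 genes with a pseudocount of 10 and for 4 of 4 under Spearman.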
